A study of Mus musculus with 24 samples.

Results

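Transcripts of 10 genes that mark tuft cells, also called brush cells, were measured in epithelial cells sorted from mouse trachea: Pou2f3, Trpm5, Gnat3, Gnb3, Alox5ap, Ltc4s, Hpgds, Il25, Avil and Dclk1. The genes were chosen as a list of symbols, and all 10 were found among the 35855 genes obtained by summing the deposited transcript values. The 24 libraries were each made from 1000 sorted cells of naive wild-type female mice, of strain C57BL/6 by the title of the series. Their 3 groups of 8 libraries are labelled BCAM HI, BCAM LO and DIFFERENTIATED EPCS (below, BCAM high, BCAM low and differentiated cells). BCAM is a laminin-binding surface protein, and the title speaks of basal cell subsets, basal cells being progenitors at the base of the airway lining. In each group libraries 1 to 5 belong to batch 1 and libraries 6 to 8 to batch 2. The sources used here give no age, no sorting gates and no meaning of the batch number. The labels do not say which libraries came from separate mice, so p-values measure only the spread between these samples, which may be technical.

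Tuft cells are rare chemosensory cells of the epithelium. Their receptors act through the taste pathway, in which the G protein gustducin (Gnat3 is its alpha subunit, and Gnb3 encodes a beta subunit) leads to calcium release and to opening of the cation channel Trpm5. The cells release the cytokine IL-25 and lipid mediators, the cysteinyl leukotrienes (Alox5ap, Ltc4s) and prostaglandin D2 (Hpgds), and the lineage depends on the POU transcription factor Pou2f3.

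The annotation (GENCODE M21, build GRCm38) places the taste pathway genes Trpm5 at chr7:143069153-143094642 (minus strand), Gnat3 at chr5:17962549-18019834 (plus) and Gnb3 at chr6:124834240-124840275 (minus). The lipid mediator genes are Alox5ap at chr5:149264767-149288153 (plus), Ltc4s at chr11:50236461-50238616 (minus) and Hpgds at chr6:65117293-65144908 (minus). Pou2f3 lies at chr9:43123939-43210369 (minus), Il25 at chr14:54932695-54935837 (plus), Avil at chr10:127000709-127020994 (plus) and Dclk1 at chr3:55242364-55539068 (plus). All values are sums over the annotated transcripts of a gene.

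POU factors of this family bind the octamer ATGCAAAT, so the sequences before the start sites of the genes were searched for it. RefSeq promoter windows (build GRCm38.p6, 250 bases before and 50 after a start site) were found for 6 of the 10 genes, Trpm5, Dclk1, Gnat3, Avil, Ltc4s and Hpgds, as 7 windows. The octamer and its first 7 letters, ATGCAAA, were searched on both strands, and every octamer also holds the shorter form. The octamer was found in the Hpgds window, 174 bases before the RefSeq start. The annotation starts Hpgds further upstream, at chr6:65144908, within the stretch printed below. The octamer therefore lies inside the annotated gene. The shorter form was also found in the Avil window, on the gene's own strand 15 bases before the start and on the other strand, as TTTGCAT, 115 bases before it. The remaining 5 windows held neither. Of all 32851 windows, 1.74% held the octamer and 4.63% the shorter form. The 250 bases before the RefSeq start are printed for the 3 tuft genes whose levels could be tested over all libraries. Dclk1 is the example without a match. The printed bases run 5′ to 3′ along the gene, and capitals mark the matches. Hpgds lies on the minus strand (chr6:65144731-65144980), and Avil (chr10:127000459-127000708) and Dclk1 (chr3:55242114-55242363) lie on the plus strand. A match describes these letters and shows no binding.
Hpgds: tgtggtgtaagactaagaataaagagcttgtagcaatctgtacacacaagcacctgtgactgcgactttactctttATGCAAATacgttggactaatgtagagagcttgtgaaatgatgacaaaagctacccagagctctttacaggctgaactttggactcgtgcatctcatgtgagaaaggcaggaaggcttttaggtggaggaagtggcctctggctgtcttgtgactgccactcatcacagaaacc
Avil: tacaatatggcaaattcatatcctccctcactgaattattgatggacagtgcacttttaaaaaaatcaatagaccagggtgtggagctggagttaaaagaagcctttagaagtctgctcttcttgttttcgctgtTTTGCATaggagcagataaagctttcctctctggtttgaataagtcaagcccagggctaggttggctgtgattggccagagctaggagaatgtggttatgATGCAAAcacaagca
Dclk1: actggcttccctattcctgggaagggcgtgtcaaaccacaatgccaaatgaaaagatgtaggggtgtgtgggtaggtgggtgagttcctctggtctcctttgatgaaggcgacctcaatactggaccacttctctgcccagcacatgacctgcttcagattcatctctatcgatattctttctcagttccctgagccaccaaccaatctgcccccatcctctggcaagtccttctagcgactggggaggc

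Library totals ran from 1824619 to 4440072 estimated counts. All 5 basal markers were higher in each BCAM group than in differentiated cells, among them Krt5 (log2 fold change 10.79 for BCAM high and 9.95 for BCAM low, adjusted p = 1.70e-15 and 1.20e-14, edgeR quasi-likelihood test). The differentiated libraries also held transcripts of thyroid follicle cells, whose 6 markers summed to 13796 to 116833 CPM there and to at most 1284 CPM elsewhere. They held 9 markers of neuroendocrine, C- and parathyroid cells as well, at 624 to 29330 CPM in batch 1 and 181 to 655 CPM in batch 2, with the parathyroid hormone gene Pth reaching 17647 CPM in differentiated 2. CPM are counts scaled to a common, normalised library total. The part of such other cells in the differences from the differentiated group was not tested. In bulk samples fewer cells of a type and less RNA per cell cannot be told apart.

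The tuft genes were sparse. Leaving out Hpgds, which is described below, the other 9 genes summed to between 1.06 and 14.9 TPM in a BCAM high library (median 7.98), between 6.90 and 107 in BCAM low (median 12.2) and between 6.99 and 36.4 in differentiated cells (median 25.2). TPM also divide by transcript length, so they allow genes to be compared. Between 5 and 9 of the 10 genes had a count in a BCAM high library, and between 6 and 10 in a library of either other group. All 10 genes had a count in 4 libraries, BCAM low 2 and differentiated 2, 3 and 4, all of batch 1.

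One library stood apart. BCAM low 2 had the highest CPM of all 24 libraries for 6 of the 10 genes, Trpm5, Gnb3, Il25, Alox5ap, Ltc4s and Avil, and it was the highest library for 2.24% of the 21550 genes with at least 10 counts. It was also the highest for 12 of 54 genes in 5 further lists of tuft cell biology. By list these were 4 of 11 taste transduction genes, 5 of 13 other tuft markers and 2 of 9 receptors and effectors. The eicosanoid genes gave 1 of 14, and the transcription factors and coactivators 0 of 7. The following were picked for mention after their values were seen. The bitter taste receptor Tas2r108 was at 12.5 CPM in BCAM low 2 and 2.48 CPM in the next library. The gustducin gamma subunit Gng13 was at 16.6 and 5.80 CPM, the 5-lipoxygenase Alox5 at 10.4 and 3.29 CPM, and Irag2 (Lrmp in the annotation) at 91.3 and 36.9 CPM. Of 17 leukocyte markers with at least 10 counts 1 had its highest value there, C1qa, and no marker of 10 lists for other cell types did. Most results that rest on BCAM low 2 are given with and without it. For fits of Alox5ap and Ltc4s a range over fits that each left out 1 library is given instead. Shares of transcripts are given over all libraries of a group.

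**Figure D1:**
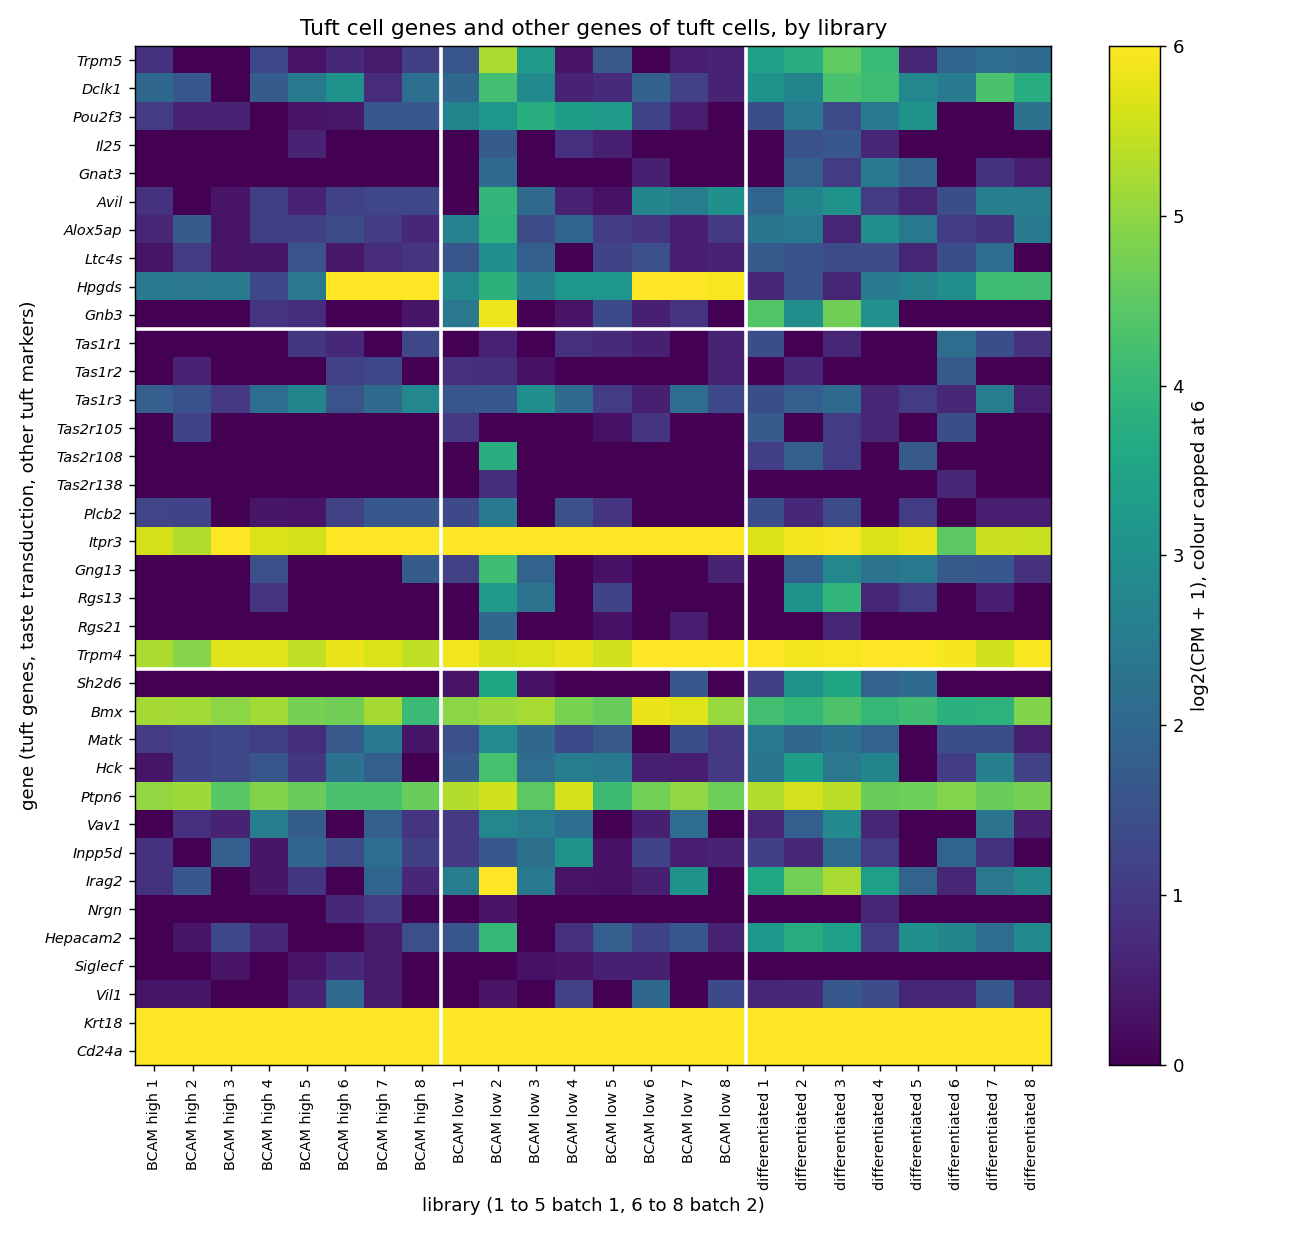
Colour shows log2(CPM + 1), capped at 6, of the 10 tuft genes (top block), 12 taste transduction genes (middle) and 14 other tuft markers (bottom) in the 24 libraries, ordered by group. BCAM low 2 is brighter than the rest of its group in each tuft gene except Pou2f3 and Hpgds, and in Tas2r108, Gng13 and Irag2. Hpgds is bright in both BCAM groups in libraries 6 to 8.

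Only 3 of the 10 genes, Dclk1, Avil and Hpgds, passed the filter on low counts over all libraries and were tested among 12211 genes, with batch as a covariate. Between BCAM high and BCAM low 1 of the 3 was called at an adjusted p under 0.05, where 7.02% of all tested genes were called. Between BCAM high and differentiated cells all 3 tested genes were called (41.3% of tested genes), and between BCAM low and differentiated cells 1 of 3 (33.5%). A sparse gene passes such a filter through the group where it is high, so these shares do not stand for the 10 genes. The other 7 genes were fitted without the filter, among 30467 genes. In that fit 5 of the 10 genes were called between BCAM high and differentiated cells (18.4% of genes), 1 between BCAM high and BCAM low (2.21%) and 1 between BCAM low and differentiated cells (13.5%). Over all 8 libraries a group, no tuft gene separated any pair of groups without overlap, as 0.868%, 8.19% and 4.44% of genes with at least 10 counts did for these 3 pairs. Within batch 1 Pou2f3 and Hpgds separated BCAM high from BCAM low (4.61% of genes), Dclk1 and Pou2f3 separated BCAM high from differentiated cells (16.5%), and no tuft gene separated BCAM low from differentiated cells (14.3%). Within batch 2, with 3 libraries a group, Avil separated BCAM high from BCAM low (16.2%). Trpm5, Avil and Hpgds separated BCAM high from differentiated cells (29.3%), and Trpm5, Dclk1 and Hpgds separated BCAM low from them (22.5%).

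**Figure D2:**
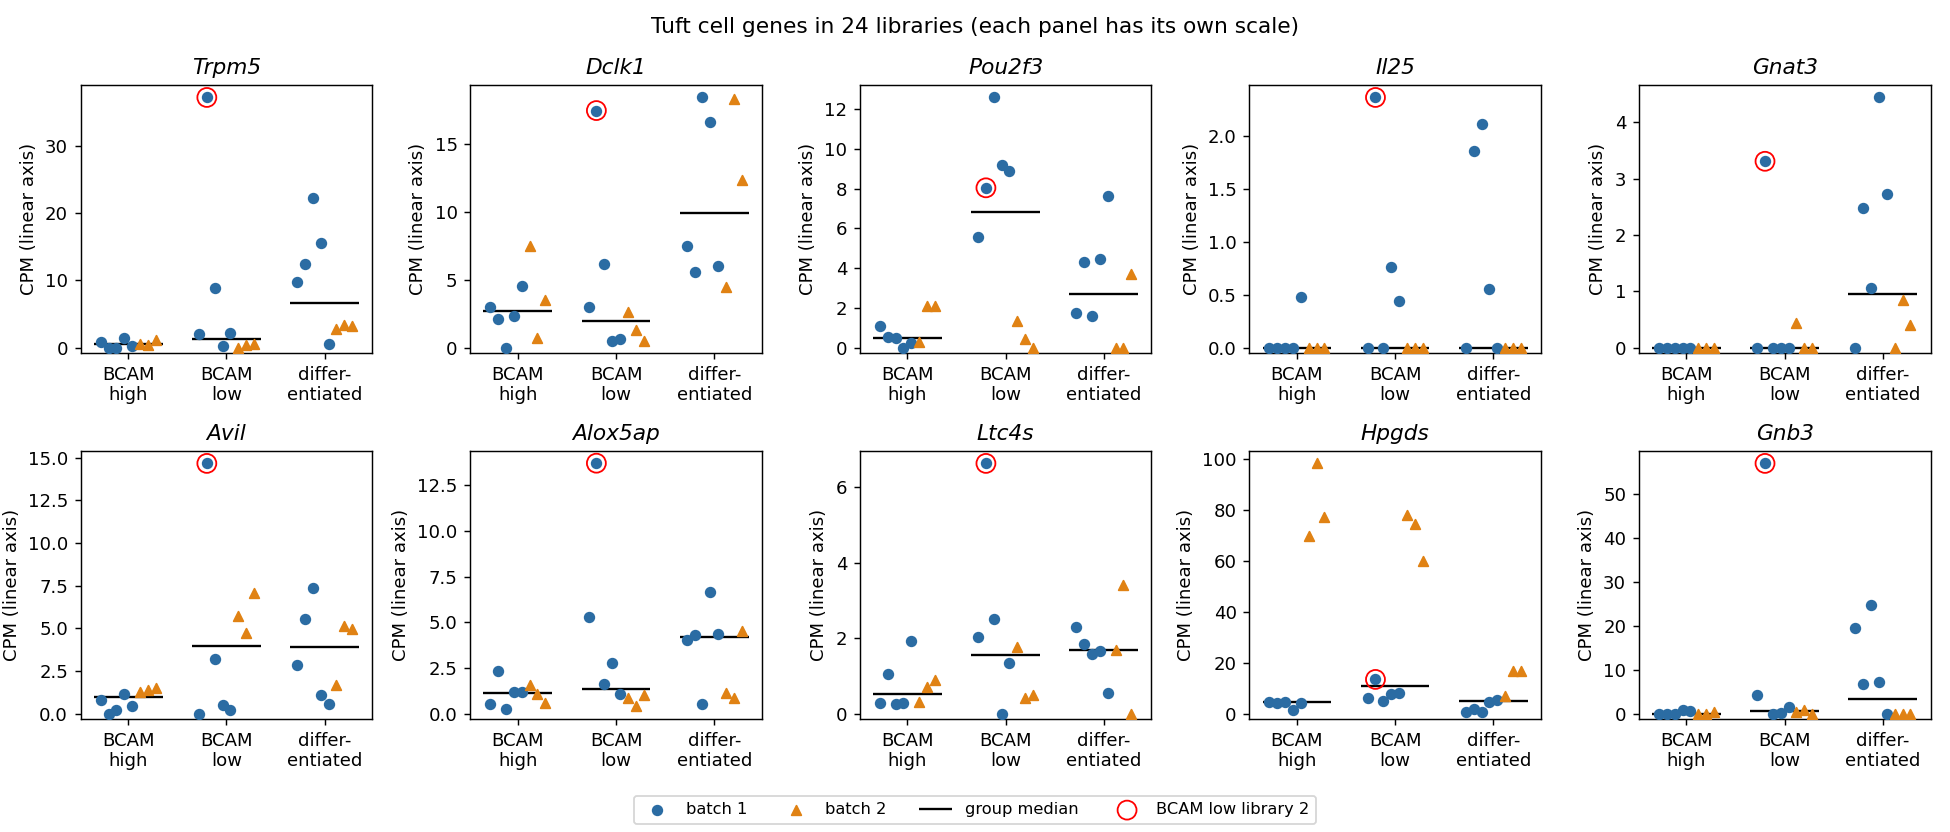
Each panel shows the CPM of 1 tuft gene in the 24 libraries on its own linear scale, with circles for batch 1, triangles for batch 2, a bar for the group median and a red ring around BCAM low 2. The ringed point is the highest of its group for each gene except Pou2f3 and Hpgds, and the Hpgds triangles of both BCAM groups lie between 60.0 and 98.3 CPM, above all circles.

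Pou2f3, the transcription factor of the lineage, was high in the BCAM low libraries of batch 1. These held 22, 34, 55.1, 36 and 40 estimated counts (5.56 to 12.6 CPM, 8.84 ± 2.53, SD, n = 5), and the BCAM low libraries of batch 2 held 3, 1 and 0. BCAM high libraries held 0 to 7 counts (median 2) and differentiated libraries 0 to 14 (median 5). Every BCAM low library of batch 1 was above every BCAM high library and above 4 of the 5 differentiated libraries of its batch, while in batch 2 the 3 groups overlapped. In batch 1, 4.61% of genes separated BCAM high from BCAM low without overlap, a share that gives no direction. BCAM low 4, with 36 Pou2f3 counts, held 1 count of Trpm5 and of Gnb3 and 0 of Gnat3 and of Ltc4s. It held 2 of Avil and of Dclk1, 3 of Il25, 11 of Alox5ap and 30.9 of Hpgds. BCAM low 2, the highest library for 6 tuft genes, was below BCAM low 3, 4 and 5 in Pou2f3 CPM. In the fit of batch 1 without the filter (3.36% of 29423 genes called), Pou2f3 was lower in BCAM high than in BCAM low, with a log2 fold change of -4.09 (SE 0.66, adjusted p = 1.65e-07, edgeR), and -4.11 (adjusted p = 8.29e-07) without BCAM low 2. It was also lower in BCAM high than in differentiated cells in that batch (-2.86, SE 0.69, adjusted p = 4.12e-04, edgeR; 16.1% of genes called). BCAM low and differentiated cells differed by 1.23 in batch 1 without passing the test (SE 0.57, adjusted p = 0.136, edgeR).

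The Pou2f3 difference between the BCAM groups depended on the batch. In batch 2 alone it was 1.27 on the log2 scale (SE 1.64, adjusted p = 0.794, edgeR; 3.86% of genes called), and the change from batch 1 to batch 2 was 5.38 (SE 1.31, adjusted p = 0.00813; 5.40, adjusted p = 0.0134 without BCAM low 2; 0.876% of genes called). Within BCAM low, Pou2f3 was lower in batch 2 than in batch 1 by -3.84 (SE 0.98, adjusted p = 0.0038, edgeR; 4.99% of genes called). Over both batches together the difference between the BCAM groups was -2.24 (SE 0.78, adjusted p = 0.132), but it passed the threshold without BCAM high 8, BCAM low 8 or differentiated 7, at adjusted p-values of 0.0441 to 0.0469 (edgeR). It also passed with only those groups in the fit (-2.37, adjusted p = 0.00548, edgeR) and in DESeq2's Wald test (-2.23, adjusted p = 0.0429). The 18 leukocyte markers of BCAM low also moved with batch, from a summed 168 to 501 CPM in batch 1 to 57.0 to 134 CPM in batch 2, and their part in the Pou2f3 values was not tested.

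The annotated transcripts that held the Pou2f3 counts also differed between groups. The coding transcript Pou2f3-202 held 89.9% of the counts in BCAM low and 54.2% in differentiated cells. In BCAM high it held 8.70% of only 23 counts, of which 65.2% went to a transcript with a retained intron. Counts are estimates split among transcripts, so these shares are descriptions.

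**Figure D3:**
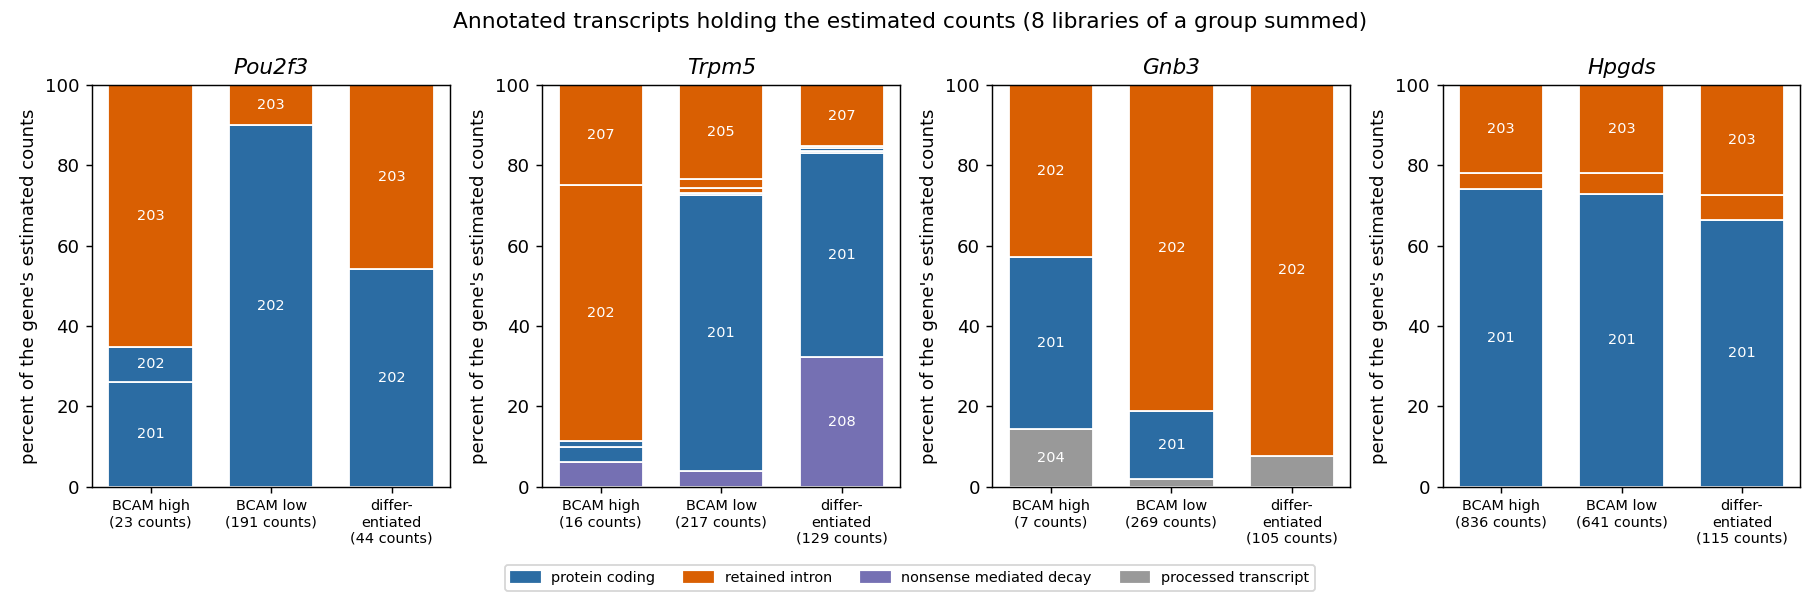
Stacked bars give the percent of a gene's estimated counts, summed over the 8 libraries of a group, held by each annotated transcript of Pou2f3, Trpm5, Gnb3 and Hpgds, coloured by transcript type, with transcript numbers inside the bars. The coding transcript of Pou2f3 fills 89.9% of the BCAM low bar, and a retained-intron transcript fills 81.2% and 92.3% of the BCAM low and differentiated bars of Gnb3. BCAM low 2 held 241 of the 269 BCAM low counts of Gnb3 and 157 of the 217 of Trpm5.

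Trpm5, the channel at the end of the taste pathway, had 0 to 5 counts in BCAM high libraries (median 1.5). BCAM low libraries held 0 to 157 (median 4.5) and differentiated libraries 1 to 42 (median 12.5). The high BCAM low values were the 157 counts of library 2 and the 39 of library 3, no other library of that group passed 10, and all 3 groups overlapped. Without the filter, Trpm5 was lower in BCAM high than in differentiated cells by a log2 fold change of -3.53 (SE 1.03, adjusted p = 0.0185, edgeR), and by -3.47 (adjusted p = 1.31e-04) without BCAM low 2. This call was lost with transcript length offsets (-2.84, adjusted p = 0.0608, edgeR), in batch 2 alone (-2.04, adjusted p = 0.447) and with limma on log2(TPM + 0.1) and log2(TPM + 1) (-1.92 and -0.86, adjusted p = 0.0857 and 0.131).

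Trpm5 in BCAM low rested on library 2. With that library BCAM low and differentiated cells differed by -0.60 (SE 0.83, adjusted p = 0.687, edgeR), and without it Trpm5 was lower in BCAM low, at -2.01 (SE 0.65, adjusted p = 0.0297; 12.7% of genes called) and at -1.77 in batch 1 alone (adjusted p = 0.0194; 15.1%). Between BCAM high and BCAM low the values were -2.93 (SE 1.05, adjusted p = 0.171) with library 2 and -1.47 (SE 0.73, adjusted p = 0.301; 2.43% of genes called) without it, and DESeq2's Wald test gave -2.70 (adjusted p = 0.0283) with it. In batch 1 alone without library 2 the Trpm5 difference between the BCAM groups was past the threshold (-2.66, SE 0.67, adjusted p = 0.00456, edgeR; 4.16% of genes called). The batch dependence of that difference was 5.46 (SE 1.45, adjusted p = 0.0294) with library 2 and 3.83 (adjusted p = 0.277) without it. Within BCAM low, Trpm5 was lower in batch 2 than in batch 1 by -4.94 (SE 1.01, adjusted p = 1.59e-04, edgeR), and by -3.32 (adjusted p = 0.0498) without library 2. The leukocyte markers were also lower in batch 2 of BCAM low, by the values given for Pou2f3, and their part was not tested. Trpm5 shares 220 exonic bases with Tssc4 on the other strand, which held 2100 counts in all, and the sources used here do not say that strand was kept, so reads there cannot be told apart.

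Gnat3, the alpha subunit of gustducin, had no count in any BCAM high library. BCAM low held 15 counts, 14 of them in library 2, and differentiated libraries held 22 counts spread over 6 of 8. With a floor of 3 counts over the group set for BCAM high, Gnat3 was 13.5-fold lower there than in differentiated cells. The difference passed the test without the filter (adjusted p = 0.00151, edgeR, and 0.00140 without BCAM low 2). By the same floor Gnat3 was 5.16-fold lower in BCAM high than in BCAM low when library 2 was counted. Both ratios take the counts of the higher group without their counting error, so they are not lower limits. Without library 2, 1 count remained in BCAM low, under the floor. BCAM low and differentiated cells did not pass the test with library 2 (adjusted p = 0.409, edgeR) or without it (adjusted p = 0.0695), and did in batch 1 without it (adjusted p = 0.0135).

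Gnb3, a beta subunit, was unevenly spread over libraries. BCAM low 2 held 241 of the 269 counts of its group and BCAM low 1 another 17, and BCAM high libraries held at most 3. Differentiated libraries 1 to 4 held 34, 11, 47 and 13 counts, and libraries 5 to 8 none, so Gnb3 was seen in differentiated cells in batch 1 only, in 4 of 5 libraries. The neuroendocrine, C- and parathyroid markers of that group also had a higher median sum in batch 1 (4886 CPM) than in batch 2 (414 CPM), and their part in the Gnb3 and Trpm5 values was not tested. Without the filter Gnb3 was lower in BCAM high than in differentiated cells (-4.41, SE 1.43, adjusted p = 0.0341, edgeR; -4.15, adjusted p = 0.00471 without BCAM low 2). That call was lost without BCAM high 1, 2, 3 or 5 or without differentiated 1 or 3, with adjusted p reaching 0.0775 (edgeR), and in batch 1 alone (-4.95, adjusted p = 0.106), but not in batch 1 without BCAM low 2 (-4.94, adjusted p = 1.94e-09). It was also lost with limma on log2(TPM + 0.1) (-1.80, adjusted p = 0.269). Against BCAM low the value was -4.82 (SE 1.43, adjusted p = 0.0896, edgeR) with library 2 and -2.20 (SE 1.12, adjusted p = 0.323) without it. Against differentiated cells BCAM low gave 0.41 (SE 1.03, adjusted p = 0.870, edgeR) with library 2, -1.95 (SE 1.07, adjusted p = 0.246) without it, and in batch 1 without it Gnb3 was lower in BCAM low (-2.84, SE 0.69, adjusted p = 5.94e-04). Most Gnb3 counts lay on Gnb3-202, a retained-intron transcript (81.2% in BCAM low, 92.3% in differentiated cells), and the coding Gnb3-201 had counts in 2 libraries. With 241 of the 269 BCAM low counts in library 2, the BCAM low share describes mostly that library.

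Alox5ap, which presents arachidonic acid to 5-lipoxygenase, held between 1 and 9 counts per BCAM high library (median 3.5), between 1 and 58 per BCAM low library (median 6) and between 1 and 12 per differentiated library (median 7). Ltc4s, the leukotriene C4 synthase, had 1 to 8, 0 to 28 and 0 to 8 counts in these groups (medians 1.5, 5 and 3). BCAM low 2 held the 58 and the 28, and the groups overlapped throughout. In BCAM low, Alox5ap summed to 102 counts over the 5 libraries of batch 1 and 5 over the 3 of batch 2, and Ltc4s to 53 and 6. Without BCAM low 2 the batch 1 sums were 44 and 25. Leukocyte markers were also lower in batch 2 of BCAM low, by the values given for Pou2f3, and their part was not tested. Without the filter Alox5ap differed by -1.35 between BCAM high and BCAM low (SE 0.66, adjusted p = 0.284, edgeR) and by -1.40 between BCAM high and differentiated cells (SE 0.65, adjusted p = 0.131). The second Alox5ap value passed the threshold with transcript length offsets (-2.18, adjusted p = 0.0173, edgeR) and with limma on log2(TPM + 0.1) and log2(TPM + 1) (-1.55 and -1.12, adjusted p = 0.0353 and 0.0444). For Ltc4s the 2 values were -1.29 (SE 0.80, adjusted p = 0.390, edgeR) and -1.08 (SE 0.81, adjusted p = 0.384), and neither gene passed the test between BCAM low and differentiated cells (-0.06 and 0.21, adjusted p = 1 and 0.938). With each library left out in turn, Alox5ap ranged from -1.55 to -0.64 against BCAM low and from -1.65 to -1.04 against differentiated cells. Ltc4s ranged from -1.66 to -0.71 and from -1.42 to -0.66. None of these edgeR fits passed the threshold. The values of BCAM low against differentiated cells are given with BCAM low 2 only.

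Hpgds, the hematopoietic prostaglandin D synthase, followed the batch. BCAM high libraries of batch 1 held 17.1, 16, 18.9, 5.1 and 18.2 counts, and those of batch 2 held 222.3, 278.2 and 260.1. BCAM low libraries held 24.5, 57, 21.9, 30.9 and 35.8 counts in batch 1 and 177.5, 174 and 119.2 in batch 2. Differentiated libraries held 1.1 to 10 counts in batch 1 and 11.8, 38.8 and 41.2 in batch 2. In each group all libraries of batch 2 lay above all of batch 1.

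Between the batches Hpgds was higher in batch 2 in BCAM high by a log2 fold change of 4.37 (SE 0.36, adjusted p = 1.43e-09, edgeR; 8.04% of genes called). The values were 3.13 in BCAM low (SE 0.34, adjusted p = 1.37e-07; 11.1%) and 2.38 in differentiated cells (SE 0.46, adjusted p = 3.19e-04; 20.1%). The difference between BCAM high and differentiated cells was larger in batch 2 than in batch 1 by 1.99 (SE 0.63, adjusted p = 0.0427, edgeR; 1.98, adjusted p = 0.0327 without BCAM low 2; 8.69% of genes called). The same test gave 1.25 for BCAM high against BCAM low (SE 0.50, adjusted p = 0.288) and 0.74 for BCAM low against differentiated cells (SE 0.61, adjusted p = 0.509), where 1.06% and 11.4% of genes were called.

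With batch as a covariate, Hpgds was higher than in differentiated cells both in BCAM high (1.76, SE 0.38, adjusted p = 4.30e-04, edgeR) and in BCAM low (2.16, SE 0.38, adjusted p = 5.88e-05). In batch 2 alone these differences were 2.57 (SE 0.29, adjusted p = 1.08e-05; 29.6% of genes called) and 2.37 (SE 0.29, adjusted p = 4.29e-05; 17.9%). In batch 1 alone they were 0.58 (SE 0.57, adjusted p = 0.471; 33.7% of genes called), not past the threshold, and 1.63 (SE 0.56, adjusted p = 0.0248; 33.1%). Without BCAM low 2 the latter was 1.40 (adjusted p = 0.0755; 33.2%). The BCAM groups did not pass the test against each other (-0.41, SE 0.30, adjusted p = 0.487, edgeR), although in batch 1 every BCAM low library (5.03 to 13.5 CPM) was above every BCAM high library (1.47 to 4.68 CPM). The fit of batch 1 gave -1.05 (SE 0.50, adjusted p = 0.233, edgeR; 5.69% of genes called) for that Hpgds difference, and -0.78 (SE 0.55, adjusted p = 0.429; 6.66% of genes called) without BCAM low 2. Mast cells also make prostaglandin D2. The summed level of their 10 markers had a higher median in batch 2 in each group, but the batches overlapped except in BCAM low. It was 1.20 to 5.23 CPM in batch 1 and 4.6 to 6.82 CPM in batch 2 of BCAM high, 1.26 to 9.94 and 17.6 to 32.6 CPM in BCAM low, and 10.4 to 31.7 and 20.1 to 64.2 CPM in differentiated libraries. Most of it was Hdc, the histidine decarboxylase, the marker of this list that could be tested, which was lower in BCAM high than in BCAM low (-1.70, adjusted p = 0.0389, edgeR) and lower in both than in differentiated cells (-3.67 and -1.97, adjusted p = 1.32e-06 and 0.00115). Fcer1a had 1 count in all 24 libraries and Cpa3 at most 5 in any. Of 10 tested leukocyte markers 4 were higher and 1 lower in BCAM high than in differentiated cells (median log2 fold change 1.40), and 7 higher and 0 lower in BCAM low (median 2.38), where 41.3% and 33.5% of all tested genes were called. The part of mast cells and other leukocytes in the Hpgds values was not tested. The coding transcript Hpgds-201 held 74.0%, 73.0% and 66.4% of the Hpgds counts in BCAM high, BCAM low and differentiated cells.

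Il25, the cytokine gene, was at the edge of detection. It had 2 counts in 1 BCAM high library, 15 in 3 BCAM low libraries, 10 of them in library 2, and 8 in 3 differentiated libraries. All 7 libraries with an Il25 count belonged to batch 1. The ratio of BCAM low to BCAM high was 7.75 (95% interval 1.80 to 69.8) with library 2 and 3.05 (0.499 to 32.0) without it, and that of differentiated cells to BCAM high was 7.39 (1.47 to 71.4). These intervals cover counting error only, since reads were amplified without molecular identifiers. The floor used for Gnat3 covers it only for the group without a count. Without the filter neither difference passed the test (adjusted p = 0.390 and 0.248, edgeR).

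Avil encodes advillin, an actin-binding protein of the tuft cell's apical bundle. BCAM high libraries held 0 to 4.6 counts (median 3.5; 0.860 ± 0.562 CPM, SD, n = 8). BCAM low libraries held 0 to 62.2 (median 12; 4.51 ± 4.89 CPM), and differentiated libraries 1 to 14 (median 7.25; 3.66 ± 2.45 CPM). The BCAM low libraries were high in library 2 (62.2 counts) and in libraries 3, 6, 7 and 8 (11 to 14), and the other 3 of the group held at most 2, within the BCAM high range. Avil was lower in BCAM high than in BCAM low by a log2 fold change of -2.40 (SE 0.73, adjusted p = 0.0411, edgeR). In 12 of the 24 fits that each left out 1 library (BCAM high 1, 2, 3, 5, 6, 7 and 8 and BCAM low 2, 3, 6, 7 and 8) the call was lost, with values of -1.50 to -2.50, and -1.50 (SE 0.69, adjusted p = 0.198; 7.42% of genes called) without BCAM low 2. It was lower in BCAM high than in differentiated cells by -2.14 (SE 0.75, adjusted p = 0.0229; -2.23, adjusted p = 0.0094 without BCAM low 2, where 41% of genes were called), a call lost without differentiated 3 (adjusted p = 0.0623), with transcript length offsets (-1.54, adjusted p = 0.224), in batch 2 alone (-1.49, adjusted p = 0.155) and with limma on log2(TPM + 0.1) (-0.58, adjusted p = 0.533).

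Within batch 2 the Avil values of BCAM low (4.72, 5.73 and 7.06 CPM) were all above those of BCAM high (1.25, 1.41 and 1.48 CPM). These libraries did not overlap for 16.2% of genes, a share that gives no direction. The fit of batch 2 gave -2.04 for Avil (SE 0.74, adjusted p = 0.165, edgeR), where 4.38% of genes were called. In the same BCAM low libraries the 5 ciliated cell markers summed to 119 to 183 CPM, against 2.13 to 14.6 CPM in BCAM low of batch 1, with Foxj1 at 55.6, 61.7 and 41.9 CPM. Their part in the Avil values was not tested. BCAM low and differentiated cells differed in Avil by 0.27 (SE 0.67, adjusted p = 0.797, edgeR) with BCAM low 2 and by -0.72 (SE 0.65, adjusted p = 0.419) without it. Avil shares 165 exonic bases with Tsfm on the other strand, which held 1973 counts, so reads there cannot be told apart.

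Dclk1, a microtubule-associated kinase used as a tuft cell marker, was found in differentiated libraries at 8 to 43 counts (median 21.5; 11.2 ± 6.00 CPM, SD, n = 8). BCAM high libraries held 0 to 24 counts (median 9.5; 2.98 ± 2.35 CPM) and BCAM low libraries 1 to 74 (median 4.5; 4.04 ± 5.76 CPM). The 74 counts were in BCAM low 2 and the next BCAM low library held 27, and in batch 1 all differentiated libraries were above all BCAM high libraries in CPM (16.5% of genes separated these libraries). Dclk1 was lower in BCAM high than in differentiated cells by -1.89 (SE 0.66, adjusted p = 0.0222, edgeR; -1.91, adjusted p = 0.00722 without BCAM low 2). The call was lost without differentiated 7 (-1.68, adjusted p = 0.0525), without the filter (-1.81, adjusted p = 0.0834) and in each batch alone (-2.16 and -1.57, adjusted p = 0.0653 and 0.146), though not in batch 1 without BCAM low 2 (-2.12, adjusted p = 0.0216; 34.4% of genes called). BCAM low against differentiated cells gave -1.46 (SE 0.65, adjusted p = 0.0869, edgeR) with library 2, and without it Dclk1 was lower in BCAM low, at -2.33 (SE 0.61, adjusted p = 0.00404; 32.3% of genes called). The BCAM groups differed by -0.44 with that library and 0.41 without it (adjusted p = 0.779 and 0.766). Dclk1 counts were spread over 14 of its 15 annotated transcripts, with 1 coding transcript, found in 17 libraries, holding 31.0%, 35.6% and 12.9% in BCAM high, BCAM low and differentiated cells.

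**Figure D4:**
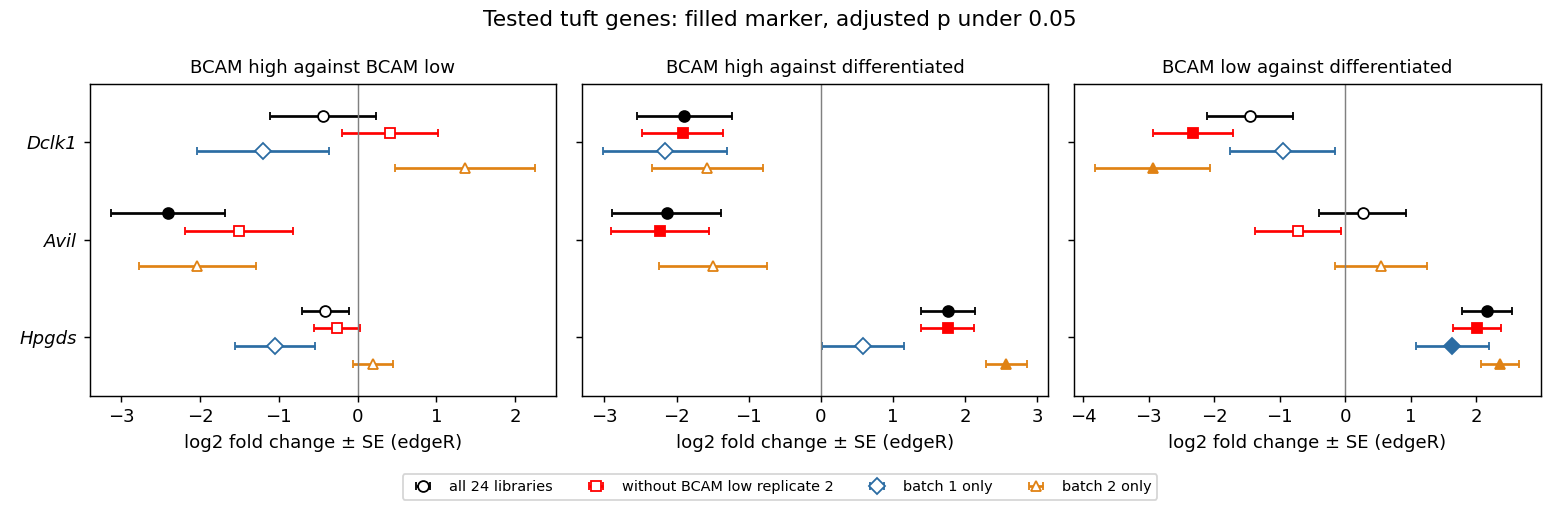
Points give the log2 fold change and bars its SE (edgeR) of Dclk1, Avil and Hpgds in the 3 comparisons, in fits of all 24 libraries, without BCAM low 2, of batch 1 only and of batch 2 only; filled markers have an adjusted p under 0.05, and Avil was not tested in batch 1 only. Avil against BCAM low is filled in the fit of all libraries only, and Dclk1 in BCAM low against differentiated cells is filled without BCAM low 2 and in batch 2 only.

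By length-scaled level the order of the genes differed between groups. In BCAM high the highest median TPM were those of Hpgds (2.81), Alox5ap (1.88), Ltc4s (1.27) and Dclk1 (1.24), and Gnat3, Gnb3 and Il25 had a median of 0. In BCAM low the order was Hpgds (7.76 TPM), Alox5ap (3.31), Pou2f3 (3.06) and Ltc4s (2.59). In differentiated cells it was Alox5ap (6.47 TPM), Dclk1 (4.18), Ltc4s (2.49) and Hpgds (1.94). The ranges of these neighbours overlapped in each group, so their order is within the spread between libraries. The order also changed with batch. In batch 1 Alox5ap (2.93 TPM) was above Hpgds (1.31 TPM) in BCAM high, and in BCAM low Ltc4s (3.76), Pou2f3 (3.62), Alox5ap (3.52) and Hpgds (3.15) were close, with Pou2f3 (3.64) first without BCAM low 2. In batch 2 Hpgds led in both, at 44.9 and 21.3 TPM. Differentiated cells were led by Alox5ap (8.04 TPM) in batch 1 and Dclk1 (12.4 TPM) in batch 2. In BCAM low 2 the order was another one, led by Gnb3 (35.8 TPM), Alox5ap (17.7), Ltc4s (15.8) and Trpm5 (10.2).

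Other genes of the pathway mostly failed the filter too. Of all tested genes 7.02% were called between the BCAM groups, 41.3% between BCAM high and differentiated cells and 33.5% between BCAM low and differentiated cells. Of 12 taste transduction genes 2 were tested, and none was called between the BCAM groups; the channel Trpm4 was lower in BCAM high than in differentiated cells (-0.48, adjusted p = 0.00591, edgeR) and the IP3 receptor Itpr3 higher in BCAM low than in differentiated cells (0.74, adjusted p = 0.00174). Of 7 transcription factors and coactivators 5 were tested. Ascl2 was higher and Sox9 lower in BCAM high than in differentiated cells (4.65 and -3.60, adjusted p = 4.67e-07 and 5.12e-08, edgeR), and likewise in BCAM low (3.80 and -4.11, adjusted p = 2.68e-05 and 2.97e-08). None of the 5 was called between the BCAM groups.

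Of 14 genes of eicosanoid synthesis and reception 9 were tested. Between BCAM high and BCAM low 2 were higher in BCAM high and 3 lower, where 7.02% of all tested genes were called, including the cyclooxygenases Ptgs1 (0.69, adjusted p = 0.0323, edgeR) and Ptgs2 (-1.05, adjusted p = 0.0478) and the leukotriene exporter Abcc1 (-0.68, adjusted p = 0.0172). Ptgs1 was also higher than in differentiated cells in BCAM high (3.34, adjusted p = 7.59e-12) and BCAM low (2.65, adjusted p = 1.35e-09); there 2 genes were higher and 2 lower in BCAM high, and 3 higher and 0 lower in BCAM low, shares near those of all tested genes (41.3% and 33.5%). Abcc1 and the phospholipase Pla2g4a were lower in BCAM high than in differentiated cells (-0.80 and -0.70, adjusted p = 7.07e-04 and 2.20e-04, edgeR), and the thromboxane synthase Tbxas1 and the glutathione transferase Mgst3 were higher in BCAM low than in them (1.5 and 0.39, adjusted p = 0.0302 and 0.00680). The median log2 fold changes of the tested genes were -0.20, 0.19 and 0.39 in the 3 comparisons, beside 8.8e-05, 0.02 and 0.02 over all tested genes. Of 11 receptors and effectors 3 were tested, and the cytokine receptor Il4ra was lower than in differentiated cells in both BCAM groups (-0.52 and -0.54, adjusted p = 2.40e-04 and 2.78e-04, edgeR).

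Of 14 other tuft markers 5 were tested. Between BCAM high and BCAM low 0 were higher and 1 lower, where 7.02% of all tested genes were called. The counts were 1 and 3 between BCAM high and differentiated cells (41.3%) and 1 and 2 between BCAM low and differentiated cells (33.5%). The surface protein Cd24a was lower in BCAM high than in BCAM low (-0.94, adjusted p = 1.40e-06, edgeR) and than in differentiated cells (-2.89, adjusted p = 1.13e-17), and lower in BCAM low than in them (-1.95, adjusted p = 8.53e-14). The kinase Bmx was higher than in differentiated cells in both BCAM groups (0.80 and 1.04, adjusted p = 0.00200 and 1.68e-04, edgeR), and the keratin Krt18 was lower than in differentiated cells in both BCAM groups (-1.23 and -0.67, adjusted p = 1.68e-05 and 0.0104). Cd24a and Krt18 are expressed beyond tuft cells. Irag2 was lower in BCAM high than in differentiated cells (-3.46, SE 1.18, adjusted p = 0.0227, edgeR). Of 8 paralogues of Gnat3, Gnb3 and Pou2f3 6 were tested, and 1 was called in each comparison, beside the same shares of all tested genes. Gnb5 was higher in BCAM high than in BCAM low (0.79, adjusted p = 0.0172, edgeR) and lower in BCAM low than in differentiated cells (-0.73, adjusted p = 0.00866). Gnb2 was lower in BCAM high than in differentiated cells (-0.83, adjusted p = 0.00114).

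The genes with the most similar pattern were sought for the 3 tested tuft genes by Pearson's r of log2 CPM over the 24 libraries, after the mean of each group and batch was subtracted. For Dclk1 they were 1110008L16Rik (0.76, and 0.70 without BCAM low 2), Tex2 (0.72 and 0.66) and Pced1b (0.68 and 0.70). For Avil they were Nfkb1 (0.74 and 0.64), Eif4a3 (0.71 and 0.57) and Spib (0.68 and 0.67). For Hpgds they were Ppm1k (0.71 and 0.70), Gm6158 (0.71 and 0.69) and Rere (0.70 and 0.70). Without subtracting the means, 2 of the 3 genes stayed for Dclk1 and 0 for Avil and for Hpgds. For Hpgds the leading genes were then Adam10, Dpysl3 and Per3, with r of 0.90, 0.89 and 0.89. For Avil they were Cib1 (0.76, and 0.83 without BCAM low 2), Mcidas (0.71 and 0.77) and Maats1 (0.70 and 0.74). The values are the highest of many genes over libraries that share batches, and are descriptions.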

How the data were processed

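Per the labels, RNA of 1000 sorted cells a library was amplified by the SmartSeq2 protocol and read as pairs of 38 bases. The authors deposited estimated counts and TPM per transcript, per the file headers; kallisto 46.1, Picard and GRCm39 are named in the submitters' processing notes, and whether strand was used in counting is not stated. Of 117497 transcripts 116374 were matched by ID to GENCODE M21 (GRCm38) and summed into 35855 genes; unmatched ones held 0.317% to 0.594% of counts. Estimated counts were rounded and tested with edgeR 4.0.16 (R 4.3.3; robust quasi-likelihood, TMM, group plus batch, filter at a minimum count of 10 and total of 15), with p-values adjusted by Benjamini-Hochberg over all genes tested and called under 0.05. The SE given with an edgeR value is its absolute log2 fold change divided by the square root of the test's F statistic. The test was tried on simulated data. Alternatives used DESeq2 1.42.0 and limma 3.58.1, the latter on log2(TPM + 0.1) and log2(TPM + 1), other designs and subsets of libraries. Fits without the filter for the 7 sparse genes, and batch 1 without BCAM low 2, were added after seeing the data. The members and gene lists were chosen with earlier results of these data known. All 10 genes are named; from each list of tuft biology and paralogues up to 3 called genes with the largest change are named per comparison, and the 3 genes most like each tested tuft gene. Depth limits sparse genes: 3 counts are the floor used for a group.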

Additional observations from a re-analysis of the deposited data

Results flagged for a closer look

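In 8 of 29 gene-and-group sets tested, 1 library lay far from the other 7 of its group, and chance gives about 1 in 20 for normally distributed values. Sparse counts over 2 batches are not such values, and a lone library with a count among zeros is always picked out, so that rate is no measure of chance here. In 7 of them that library was BCAM low 2, the highest of its group: Trpm5 at 37.1 CPM, Dclk1 at 17.5, Il25 at 2.36, Gnat3 at 3.31, Alox5ap at 13.7, Ltc4s at 6.62 and Gnb3 at 57.0. The other was Il25 in BCAM high 5 at 0.480 CPM, the only BCAM high library with a count of it. These genes were measured in the same library, so the 7 are not independent.

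The difference of 3 genes between groups changed with batch. For Hpgds, BCAM high against differentiated cells was larger in batch 2 by 1.99 on the log2 scale (adjusted p = 0.0427, edgeR). In the fit without the filter, BCAM high against BCAM low changed by 5.46 for Trpm5 (adjusted p = 0.0294) and by 5.38 for Pou2f3 (adjusted p = 0.00813). Without BCAM low 2 these were 1.98, 3.83 and 5.40, and the Trpm5 value no longer passed the threshold (adjusted p = 0.277).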

How the results depend on the processing

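Between BCAM high and BCAM low the number of tuft genes called was 1 over all libraries, Avil. It was 0 with transcript length offsets, with limma on log2(TPM + 0.1) and on log2(TPM + 1) and without the batch covariate. It was also 0 with the replicate block and in batch 2 only, and 0 to 1 on leaving out each library in turn. With only the groups compared it was 0, and Avil was not tested there. In batch 1 only it was 1, but of another gene, as Avil was not tested there either. Between BCAM high and differentiated cells it was 3, with 5 without the filter, 1 in batch 2 only and 2 to 3 on leaving out a library. In batch 1 only the genes called were others, as Dclk1 and Hpgds were not called and Avil was not tested. The call of Avil was lost with transcript length offsets, both limma fits, the replicate block and in batch 2 only. That of Hpgds was lost without the batch covariate, and that of Dclk1 without the filter and in batch 2 only. Between BCAM low and differentiated cells it was 1, with 2 under DESeq2, both limma fits, batch 2 only and batch 1 only without BCAM low 2, 0 without the batch covariate, and 1 to 2 on leaving out a library (2 without BCAM low 2). The cause of these changes was not tested.

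The sign turned for Dclk1 between the BCAM groups with limma (0.63 and 0.32 for the 2 pseudocounts), in batch 2 only (1.37) and without BCAM low 2 (0.41; -0.79 to 0.41 on leaving out each library); for Hpgds there without the batch covariate (0.089) and in batch 2 only (0.20); and for Avil between BCAM low and differentiated cells without BCAM low 2 (-0.72; up to 0.59 on leaving out other libraries). In the fits without the filter, batch 2 only turned Trpm5 (1.12), Pou2f3 (1.27) and Alox5ap (0.44) between the BCAM groups, and Pou2f3 (0.25) and Gnb3 (1.61) between BCAM high and differentiated cells. None of these turned values passed the threshold.

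The labels do not say that same-numbered libraries share a source. Over 24 same-number pairs (8 in each comparison) their deviations correlated at 0.0252 to 0.155, over 0.1 in 6. In 21 of 24 the own number correlated best among the libraries of its batch in the other group, 5 in batch 1 and 3 in batch 2. The main tests take the libraries as unpaired, so they leave out any such pairing. It comes from the data and not from the labels, so the block is given here only. With the replicate block Avil lost its calls (-1.71 and -1.80, adjusted p = 0.189 and 0.0637, edgeR) and turned between BCAM low and differentiated cells (-0.10), Dclk1 turned between the BCAM groups (0.014), and without the filter Trpm5, Pou2f3 and Gnb3 were lower in BCAM high than in BCAM low (-2.14, -2.39 and -3.28, adjusted p = 0.0145, 0.0132 and 7.06e-04). Depth limits Il25 and Gnat3 most, with 25 and 37 counts in all libraries.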
